A study of Sus scrofa with 12 samples.

Results

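The zinc finger genes described here are the rows of a porcine embryo count table whose symbol begins with ZNF, ZSCAN or ZKSCAN and a digit. Members were chosen by 2 things, the symbol and the measured level: a row was a member when its mean CPM (count scaled to the library total) over the 12 libraries was at least 1. That level is therefore given as a description. The rule found 193 members among 29329 rows, of which 182 were ZNF, 5 ZSCAN and 6 ZKSCAN genes. Another 78 rows with such a symbol fell below the threshold. The nearest ones inside it were ZNF135 and ZNF331 at 1.0 CPM and ZSCAN31 at 1.09 CPM, and the nearest outside were ZNF786 at 0.886 CPM, ZNF804A at 0.949 CPM and ZNF112 at 0.989 CPM.

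Most of these genes encode proteins with runs of C2H2 zinc fingers, small zinc-holding folds that each read a few bases of DNA. Many also carry a KRAB domain, which recruits the co-repressor TRIM28 and through it histone methyltransferases that silence transposable elements and imprinted loci. Others carry a SCAN domain, through which such proteins pair with each other (the ZSCAN names, with ZKSCAN for SCAN together with KRAB), and a minority work outside transcription, in ribosome assembly, RNA processing or the mitotic spindle. In cleaving mammalian embryos the family is of interest because maternal transcripts are cleared while the embryonic genome is switched on.

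The libraries were made by SMART-seq, in which polyadenylated RNA of a small sample is copied to full-length cDNA and amplified, from pools of in vitro fertilised porcine embryos. There were 4 groups of 3 libraries. Those named con-2c and con-4c came from embryos labelled as a blank control, and those named si-2c and si-4c from embryos that received si-CCNB2, a small interfering RNA that targets cyclin B2. The design asks how the transcriptome differs between the 2-cell and the 4-cell stage and what the loss of this mitotic cyclin changes. The stage in the names is that of the library titles. The tissue label gives the opposite stage in all 12 libraries, so a stage difference here is a difference of titles, whose sign as a developmental direction depends on which label is right. BTG4, a maternal gene that acts in mRNA clearance, stood at 18571 CPM in the con-2c libraries but 7682 CPM in the con-4c ones, and DPPA2, a marker of porcine genome activation, at 36.8 and 171 CPM, so between the control titles the maternal transcript was lower and the activation marker higher in con-4c. Between the si titles both ran the other way, with 7897 and 19671 CPM for BTG4 and 87.5 and 39.8 CPM for DPPA2. The methods describe negative controls for each injected agent and speak of like injection volumes in experimental and negative control groups, and their account of the sequenced embryos names the controls as normal embryos of a si-CCNB2 negative control group, whereas the labels say blank control. If the controls received no injection, the injection itself and the loss of CCNB2 cannot be told apart. Per the methods of the study, oocytes came from postpubertal Long White gilts and semen from Landrace boars, and the sex of the pooled embryos was not given in the sources used here.

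Library totals were between 27785233 and 39510908 counts. CCNB2 was at 444 to 487 CPM in con-2c and 429 to 510 CPM in con-4c, against 17.8 to 28.8 CPM in si-2c and 40.3 to 46.8 CPM in si-4c, so the targeted transcript was low in every si library. All 10 oocyte and early embryo markers on the list used were in the table. Their summed level was 19881 to 24883 CPM in con-2c and 22854 to 25018 CPM in si-4c, against 10189 to 10983 CPM in con-4c and 10208 to 12046 CPM in si-2c. Of 12 cumulus and granulosa markers 9 were in the table, summing to between 5.35 and 9.11 CPM in every library, with each of the 9 under 4 CPM in every group mean. PTX3 was at 0 in con-2c and 0.604 CPM in si-2c, HAS2 and FOXL2 at 0 in all groups but con-4c, and TNFAIP6 was at 1.04 CPM in con-4c and 0.0900 CPM in si-4c. Of 9 sperm and spermatid markers 3 were in the table, summing to between 4.95 and 11.2 CPM, and AKAP4 among them was at 0 in con-2c and si-4c and at 0.349 CPM in con-4c and 0.648 CPM in si-2c. BTG4 made up most of the oocyte sum. OOEP was lower in con-4c and si-2c as well, with a mean of 371 CPM in con-4c and 440 in si-2c against 1338 and 1027 in the other two, whereas BMP15 was lowest in con-2c (887 CPM) and highest in si-2c (1228 CPM), and DPPA2 ran opposite to BTG4. The part of these differences in the results below was not tested. In pooled embryos, fewer cells and less RNA per cell cannot be told apart.

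Levels below are CPM scaled by the trimmed mean of M values (TMM), with SD over 3 libraries. CPM is not divided by transcript length, so each gene is compared only with itself. Where 4 means are listed in group order, con-2c comes first, then con-4c, then si-2c, then si-4c. Differences are log2 fold changes from 1 edgeR quasi-likelihood model over all 12 libraries and 17995 genes. Shares of all genes include genes with a mean under 1 CPM, which could not be members. Genes with an adjusted p below 0.05 and at least a 2-fold difference are the called ones, and "rose", "fell", "higher" and "lower" are used of genes that passed it unless the text says otherwise. Differences have the following names: the control stage contrast sets con-4c over con-2c, the si stage contrast si-4c over si-2c, the 2c knockdown contrast si-2c over con-2c, and the 4c knockdown contrast si-4c over con-4c.

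All 193 members passed the filter on low counts. In 175 of them the mean of every group was at least 1 CPM, whereas 10 were below 1 CPM in con-2c and si-4c and reached it in con-4c or si-2c (ZNF135, ZNF263, ZNF322, ZNF331, ZNF335, ZNF408, ZNF622, ZNF691, ZNF772 and ZSCAN31). These 10 entered through the groups in which they were high. No member entered the other way round. The remaining members were under 1 CPM in at least 1 group without this pattern, and they are not set aside below.

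With TMM scaling the level summed over the family differed little between groups, and a minority of its genes differed. Summed over the 193 members, the level was 4631 ± 92 CPM in con-2c and 4846 ± 62 in si-4c, with 4687 ± 50 in con-4c and 4487 ± 159 in si-2c. That order depended on the scaling. With plain library totals the sums were 3979 to 4353 CPM in con-2c and 4160 to 4455 in si-4c, below 5000 to 5073 in con-4c and 4918 to 5631 in si-2c. For each member the highest group mean was divided by the lowest. The ratio was under 1.5 in 100 members (51.8%, beside 49.0% of the 11605 tested genes with a mean of at least 1 CPM), 2 or more in 36 (18.7% beside 23.6%) and 4 or more in 13 (6.74% beside 8.82%), with a median of 1.49 beside 1.51. In 9 of the 10 members with the highest mean CPM the ratio was under 2, the exception being ZNF567.

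ZNF106, which codes for an RNA-binding zinc finger protein (chr1:128893965-128957334, RefSeq annotation of Sscrofa11.1), was at 301, 282 and 283 CPM in con-2c and 289, 308 and 318 in si-4c, with 347, 329 and 350 in con-4c and 305, 304 and 304 in si-2c. The con-4c libraries lay above the others by a narrow margin. Its log2 fold change in the control stage contrast was 0.24 (SE 0.07, edgeR adjusted p = 0.00978), far from the 2-fold threshold. ZNF667 was at 166 ± 17.7, 171 ± 10.7, 175 ± 20.6 and 188 ± 3.82 CPM in group order, with adjusted p of 0.780 in the control stage contrast in the same model. ZNF436 (107, 113, 120 and 121 CPM in group order) and ZNF570 (164, 191, 173 and 164 CPM) kept to as narrow a range. ZNF644, a partner of the histone methyltransferases G9a and GLP, had means of 106, 140, 120 and 128 CPM, and ZNF462, a chromatin regulator, 89.9, 123, 142 and 92.3 CPM.

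Of those 10 members, 4 had lower means in con-4c and si-2c than in con-2c and si-4c, namely ZNF207, ZNF277, ZNF354A and ZNF567. ZNF207, also called BuGZ, promotes spindle assembly and stabilises the checkpoint protein BUB3 at kinetochores, and it was the only member of the spindle list. Its level was 259, 278 and 222 CPM in con-2c and 201, 223 and 213 in si-4c, with 174, 182 and 172 in con-4c and 148, 151 and 187 in si-2c. The con-2c libraries did not overlap with those of con-4c or si-2c. The log2 fold change was -0.53 (SE 0.10) in the control stage contrast, with an edgeR adjusted p of 0.000501, and -0.64 (SE 0.10) in the 2c knockdown contrast, adjusted p = 0.000105, both under the 2-fold threshold. ZNF354A had means of 109, 95.8, 103 and 123 CPM in group order and ZNF277 168, 139, 131 and 173 CPM. ZNF567 had the widest span of these genes and is described below with its neighbours on chromosome 6.

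**Figure D1:**
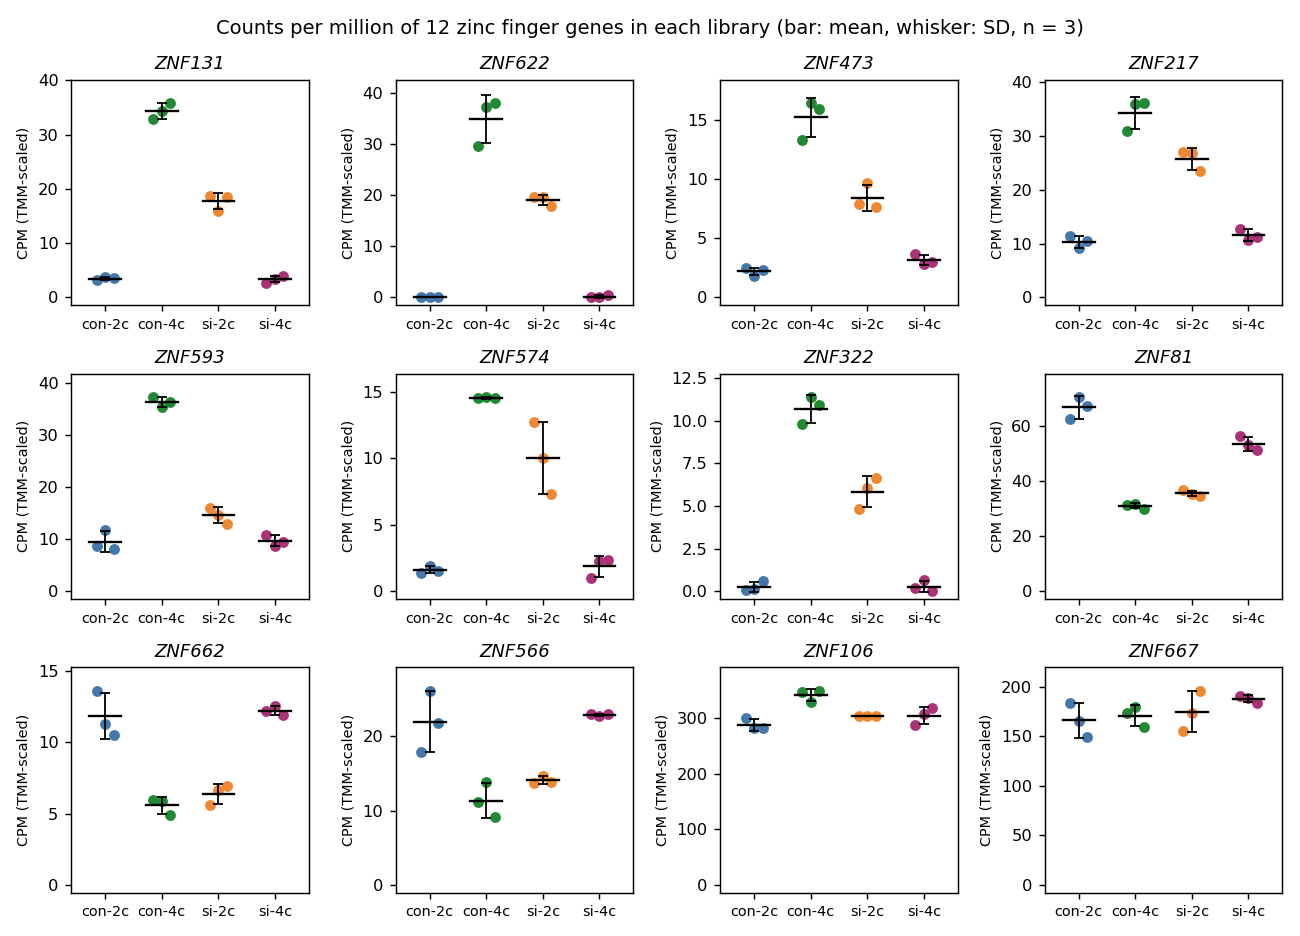
TMM-scaled CPM (y axis, from 0) of 12 members in each of the 12 libraries, by group (x axis); points are libraries, the bar is the mean and the whisker the SD of 3 libraries. ZNF131, ZNF622, ZNF473, ZNF217, ZNF593, ZNF574 and ZNF322 are highest in con-4c, ZNF81, ZNF662 and ZNF566 are lowest there, and ZNF106 and ZNF667 are nearly level.

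In the control stage contrast, 22 of the 193 members were called higher (11.4%) and 3 lower (1.55%). Over all 17995 genes tested the shares were 14.4% higher and 3.25% lower, so the family's share of calls was no larger than the table's. The median log2 fold change was 0.09 over the members and 0.11 over all genes. The libraries of con-2c and con-4c did not overlap in any of the 25 called members, beside 96.1% of all called genes. Of the 22, 8 belong to the 10 that entered through the groups in which they were high. Among the other 183 members 14 were called higher (7.65%) and 3 lower. With plain library totals the split was 31 higher and 0 lower (beside 17.9% and 1.27% of all genes), and the medians moved up together to 0.35 for members and 0.38 for all genes. Between 1 and 5 CPM, 15 of 76 members were called higher, beside 20.6% of the 3931 tested genes in that range. From 5 to 20 CPM it was 6 of 57 (beside 12.9% of 3093 genes), and at 20 CPM or more 1 of 60 (beside 5.59% of 4581 genes). Without the 10 members that entered through con-4c or si-2c, these were 8 of 67, 5 of 56 and 1 of 60.

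**Figure D2:**
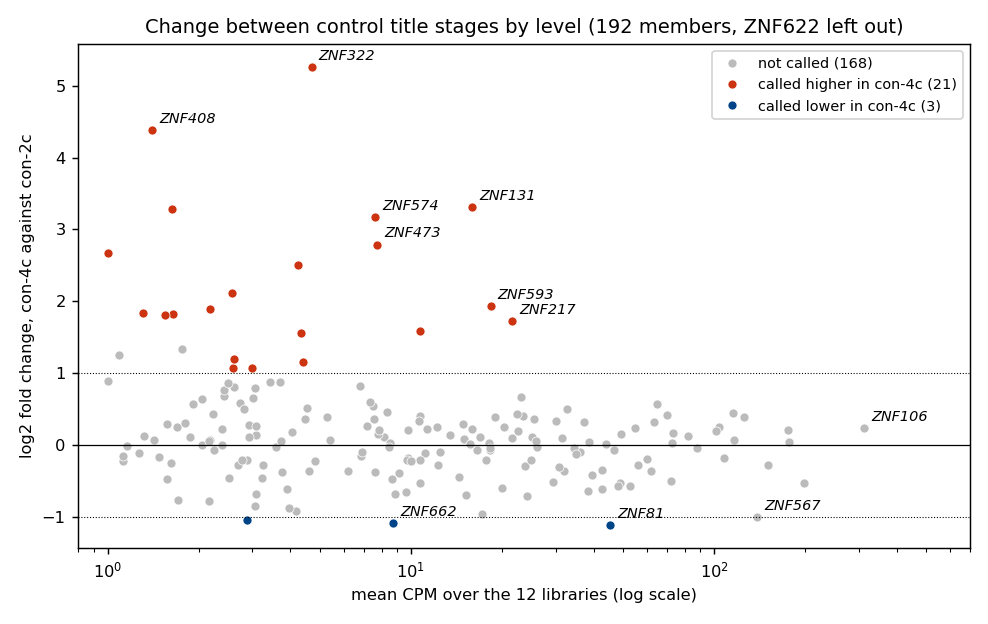
Log2 fold change in the control stage contrast (y axis) against the mean CPM over the 12 libraries (x axis, log scale), 1 point per member, for 192 members; ZNF622, which had no count in con-2c, is left out and the dotted lines mark a 2-fold difference. The 21 members called higher in this plot lie mainly to the left, where levels are low, and the 3 called lower sit just under the lower line.

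The members with the strongest evidence in the control stage contrast included factors of ribosome assembly and RNA processing as well as DNA-binding proteins. ZNF622 codes for a late maturation factor of the large ribosomal subunit (chr16:5699740-5714824). It had 0, 0 and 0 counts in con-2c and 0, 0 and 14 in si-4c, with 899, 1124 and 1171 in con-4c and 804, 734 and 833 in si-2c. Of all members it alone was without a count in every library of a group, and it is 1 of the 10 that entered through con-4c or si-2c. Its mean level was 35.0 ± 4.68 CPM in con-4c and 19.0 ± 1.01 in si-2c. Against a floor of 3 counts summed over the con-2c libraries, it was at least 1137-fold higher in con-4c and at least 617-fold higher in si-2c, with edgeR adjusted p of 2.84e-09 and 1.76e-08. Against the 14 counts of si-4c the ratio was 253 for con-4c (95% exact interval 151 to 464) and 137 for si-2c (81.7 to 252). These intervals cover counting error only, and amplified reads are not independent molecules.

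ZNF593 codes for a second factor of large subunit assembly and export (chr6:83590840-83593284). Its level was 8.69, 11.8 and 8.15 CPM in con-2c and 10.9, 8.79 and 9.44 in si-4c, with 37.4, 35.4 and 36.4 in con-4c and 16.1, 14.7 and 13.0 in si-2c. The con-4c libraries stood well above all others, and si-2c lay between them and con-2c without overlap. The rise in con-4c was 1.93 (SE 0.15, edgeR adjusted p = 2.1e-08). In the 2c knockdown contrast the log2 fold change was 0.61 (SE 0.14, adjusted p = 0.00406), short of the fold threshold.

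The ribosome and RNA list held 7 genes, all of them members, and ZNF622 among them is 1 of the 10 that entered through con-4c or si-2c. ZNF593 and ZNF622 were called higher in the control stage contrast and lower in the 4c knockdown contrast, and ZNF622 alone was called in the 2c knockdown contrast and in the si stage contrast. The shares of all genes called in those directions were 14.4%, 15.8%, 10.7% and 11.9%. The other 5 were called in none of these. ZNF598, a ubiquitin ligase that marks collided ribosomes, was at 5.41, 5.67, 5.15 and 5.14 CPM in group order. The means of ZNF326, a splicing-linked factor, were 17.4, 20.7, 21.2 and 20.6 CPM. ZNF830, also tied to splicing, stood at 54.3, 72.7, 77.5 and 69.1 CPM, and ZNF346, which binds double-stranded RNA, at 3.07, 1.79, 1.54 and 2.36 CPM. The list's median log2 fold change was 0.25 in the control stage contrast, and ZNF622 stands at the end of the order there whether its fitted value or its lower bound is used.

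ZNF473, a subunit of the U7 particle that trims the 3' ends of replication-dependent histone transcripts (chr6:55009252-55023142), had 2.45, 1.84 and 2.28 CPM in con-2c and 13.3, 16.4 and 15.9 in con-4c. Its si-2c libraries had 7.87, 9.67 and 7.66 CPM, its si-4c libraries 3.66, 2.81 and 3.02. No group overlapped with its neighbour in that order of levels. The log2 fold change was 2.79 (SE 0.19, edgeR adjusted p = 5.37e-09) in the control stage contrast.

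Among the DNA-binding members the clearest was ZNF131, a transcription factor with a BTB domain (chr16:27813974-27846872). It was at 3.18, 3.71 and 3.50 CPM in con-2c and 2.73, 3.47 and 3.97 in si-4c, with 32.8, 34.4 and 35.8 in con-4c and 18.7, 16.0 and 18.5 in si-2c. Con-2c and si-4c overlapped, while si-2c and con-4c stood apart from them and from each other. It rose by 3.31 (SE 0.15, edgeR adjusted p = 3.03e-11) in the control stage contrast and by 2.35 (SE 0.15, adjusted p = 3.44e-09) in the 2c knockdown contrast.

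ZNF217, which binds the CoREST and CtBP repressor complexes (chr17:54605939-54648868), was at 11.4, 9.21 and 10.4 CPM in con-2c and 30.9, 35.9 and 36.1 in con-4c. Its libraries of si-2c, at 27.0, 26.9 and 23.4 CPM, lay close below con-4c, and those of si-4c, at 12.8, 10.7 and 11.3 CPM, overlapped with con-2c. The log2 fold change in the control stage contrast was 1.73 (SE 0.12, edgeR adjusted p = 1.06e-08). ZNF148, known as ZBP-89, binds GC-rich promoters. Its means were 5.78 ± 1.28, 17.4 ± 0.947, 11.2 ± 1.35 and 6.44 ± 0.809 CPM in group order, and it rose by 1.59 (SE 0.17, adjusted p = 1.73e-06) in con-4c. For ZNF574 the libraries had 1.40, 1.93 and 1.51 CPM in con-2c and 0.990, 2.26 and 2.33 in si-4c, with 14.5, 14.6 and 14.5 in con-4c and 12.7, 9.99 and 7.32 in si-2c. The si-2c libraries of this gene were the most spread, but all lay below con-4c and above con-2c.

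Several members were near the floor in con-2c. ZNF322 had 3, 4 and 20 counts in con-2c and 6, 22 and 0 in si-4c, against 297, 344 and 336 in con-4c and 198, 227 and 309 in si-2c. It rose by 5.26 (SE 0.61, edgeR adjusted p = 3.41e-06) in the control stage contrast. ZNF408 had 0, 0 and 12 counts in con-2c and 0, 12 and 8 in si-4c, with 106, 40 and 95 in con-4c and 106, 81 and 74 in si-2c. Both low groups of these genes held only scattered reads. ZNF322 and ZNF408 are among the 10 members that entered through con-4c or si-2c, so the membership rule favoured a rise in con-4c. ZNF396, a SCAN domain gene despite its name, had means of 1.54, 8.83, 4.02 and 1.57 CPM in group order, and rose by 2.51 (SE 0.28, adjusted p = 2.05e-06) in con-4c.

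The chromatin partner list named 16 genes, of which 15 were in the table and 14 were members (ZNF687 was below the threshold, and ZNF274 was not analysed here). ZNF217, ZNF335 and ZNF410 were called higher in the control stage contrast (beside 14.4% of all genes) and none lower (beside 3.25%). ZNF335 is 1 of the 10 members that entered through con-4c or si-2c. ZNF335, a subunit of histone methyltransferase complexes, had means of 0.825, 2.93, 1.76 and 0.694 CPM in group order. ZNF410, an activator of the NuRD gene CHD4, had 1.04, 4.53, 2.80 and 1.35 CPM and rose by 2.12 (SE 0.39, edgeR adjusted p = 0.000349) in con-4c. The remaining members of the list were not called there, among them ZNF451, a SUMO ligase (93.4, 108, 101 and 99.1 CPM), ZNF518A (73.1, 74.7, 68.2 and 73.0 CPM) and ZNF445, a guardian of imprinting marks (28.8, 30.9, 29.5 and 35.7 CPM). ZNF711, which recruits the demethylase PHF8, and ZNF496, a partner of the methyltransferase NSD1, were at 9.93 and 11.9 CPM in con-2c and at 8.73 and 11.2 CPM in con-4c. ZNF592 and ZNF532, which join the ZMYND8 complex, had log2 fold changes of 0.21 and 0.57. The median of the 15 tested genes was 0.40.

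Of 8 promoter and enhancer binding factors 7 were in the table, all of them members, and ZNF131 and ZNF148 were called higher in the control stage contrast, beside 14.4% of all genes. ZNF143, which anchors promoter contacts, was at 64.8 ± 5.38 CPM in con-2c and 56.6 ± 5.56 in con-4c. ZNF24 had means of 68.5, 46.4, 37.6 and 64.1 CPM in group order and ZNF281 23.6, 33.7, 41.9 and 27.8 CPM, opposite to each other in order. Neither passed the fold threshold, with log2 fold changes of -0.56 (edgeR adjusted p = 0.000324) and 0.51 (adjusted p = 0.00408). ZNF76 and ZNF740 were below 5 CPM in every group mean. The list's median was 0.12.

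Members called lower in the control stage contrast were few and changed little more than 2-fold. ZNF81 on the X chromosome (42246548 to 42372191) was at 62.2, 70.4 and 67.1 CPM in con-2c and 56.2, 52.9 and 51.1 in si-4c, with 31.2, 31.7 and 29.9 in con-4c and 36.5, 35.3 and 34.4 in si-2c. The groups did not overlap with each other at any point of that order. It fell by 1.11 on the log2 scale (SE 0.08, edgeR adjusted p = 2.27e-08). ZNF662 was at 13.6, 11.3 and 10.5 CPM in con-2c and 5.96, 5.90 and 4.88 in con-4c, and fell by 1.08 on that scale (SE 0.16, adjusted p = 4.03e-05). Without con-2c replicate 1 or con-4c replicate 3 its log2 fold change was -0.97 or -0.99, and with plain library totals ZNF662 stood at -0.80 and ZNF81 at -0.83, in each case short of the fold threshold. The third was ZNF703, a co-repressor, with means of 3.28, 1.59, 3.77 and 2.81 CPM in group order. Without a minimum fold, 40 members passed as higher and 27 as lower, beside 20.7% and 15.1% of all genes. Of those 27, 24 had a log2 fold change above -1, so the downward side consisted of modest differences.

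In the 2c knockdown contrast, 15 of 193 members were called higher (7.77%, beside 10.7% of all genes) and 0 lower (beside 1.80%). Of the 15, 4 are among the 10 that entered through con-4c or si-2c, which leaves 11 of the other 183 (6.01%). On the downward side 32 members had an unadjusted p below 0.05 and DESeq2 also called 0. The median was 0.06 for members and 0.12 for all genes. This comparison and the previous one share the con-2c libraries, so their calls are set side by side and not counted as separate evidence. ZNF131, ZNF622, ZNF217, ZNF473, ZNF574 and ZNF322 had the smallest p among those with at least 5 CPM in si-2c. ZNF217 rose by 1.32 (SE 0.12, edgeR adjusted p = 4.73e-07), ZNF473 by 1.94 (SE 0.19, adjusted p = 7.02e-07), ZNF574 by 2.63 (SE 0.28, adjusted p = 1.9e-06) and ZNF322 by 4.38 (SE 0.61, adjusted p = 3.34e-05). ZNF410 rose by 1.42 (SE 0.38, adjusted p = 0.00942) and was the other gene of the chromatin partner list that was called. ZNF365 was called here, with a log2 fold change of 1.18, and not in the control stage contrast, where it had 0.69. With plain library totals 32 members were called higher (beside 16.8% of all genes) and the members' median moved to 0.47, alongside 0.52 for all genes.

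In the 4c knockdown contrast, 27 members were called lower (14.0%, beside 15.8% of all genes) and 2 called higher (1.04%, beside 3.12%). All 10 members that entered through con-4c or si-2c were among the 27, and 17 of the other 183 were called lower (9.29%). Between 1 and 5 CPM, 19 of 76 members were called lower, beside 22.2% of tested genes in that range. From 5 to 20 CPM it was 7 of 57 (beside 13.2%), and at 20 CPM or more 1 of 60 (beside 5.22%). Without a minimum fold 31 members were higher and 37 lower, beside 15.1% and 21.7% of all genes. The median was -0.03 for members and -0.11 for all genes. ZNF131 fell by 3.34 on the log2 scale (SE 0.15, edgeR adjusted p = 2.61e-11), ZNF593 by 1.91 (SE 0.15, adjusted p = 2.37e-08), ZNF217 by 1.56 (SE 0.12, adjusted p = 3.51e-08), ZNF473 by 2.26 (SE 0.18, adjusted p = 4.93e-08) and ZNF148 by 1.43 (SE 0.17, adjusted p = 5.16e-06). Those 2 that rose were ZNF662, at 5.96, 5.90 and 4.88 CPM in con-4c and 12.2, 12.5 and 11.9 in si-4c (1.13, SE 0.16, adjusted p = 2.39e-05), and ZNF566, at 11.1, 13.8 and 9.10 CPM in con-4c and 23.0, 22.7 and 22.9 in si-4c (1.02, SE 0.15, adjusted p = 6.12e-05). In both genes the si-4c libraries were tightly grouped above con-4c. ZNF566 lay close to the fold threshold and missed it with DESeq2 and with a stricter filter (0.98 in both), with plain library totals (0.76) and without con-4c replicate 3 (0.88). ZNF662 missed it with plain library totals (0.87).

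From the chromatin partner list, 5 of the 15 tested genes were called lower in the 4c knockdown contrast and 0 higher, beside 15.8% and 3.12% of all genes. On the higher side DESeq2 also called 0, and 1 gene had an unadjusted p below 0.05. Those called lower were ZNF217, ZNF335, ZNF410, ZNF827 and ZNF687, which is no member. ZNF335 is 1 of the 10 members that entered through con-4c or si-2c, all of which were called lower here. ZNF687 was at 0.433, 1.17, 0.646 and 0.179 CPM in group order, so it reached 1 CPM in con-4c alone. ZNF827, which brings the NuRD complex to telomeres, was at 7.50, 10.5 and 9.49 CPM in con-4c and 3.15, 4.86 and 5.11 in si-4c, without overlap, and fell by 1.07 on the log2 scale (SE 0.22, edgeR adjusted p = 0.00105). The list's median was -0.12. Of the 7 promoter and enhancer binders ZNF131 and ZNF148 were called lower, again beside 15.8% of all genes, and the median was -0.08.

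In the si stage contrast, 16 members were called lower (8.29%, beside 11.9% of all genes) and 0 higher (beside 1.47%). Upward, 41 members had an unadjusted p below 0.05, and DESeq2 called 0. The median was 0.01 for members and -0.13 for all genes, and with plain library totals these were -0.37 and -0.51, so the sign of the members' median depended on the scaling. Of the 16, 6 are among the 10 that entered through con-4c or si-2c, which leaves 10 of the other 183. For 15 of the 16 (93.8%) the libraries did not overlap between the groups, beside 96.8% of all called genes, the exception being ZNF691. ZNF131 fell by 2.39 on the log2 scale (SE 0.15, edgeR adjusted p = 2.66e-09), ZNF217 by 1.15 (SE 0.12, adjusted p = 2.13e-06) and ZNF777, which had 6.14, 7.87 and 4.83 CPM in si-2c against 2.46, 1.62 and 1.34 in si-4c, by 1.79 (SE 0.28, adjusted p = 0.000122). No library enters both this comparison and the control stage contrast. Of the 22 members called higher in the control stage contrast, 21 had a negative log2 fold change in the si stage contrast (95.5%) and 14 were called lower there (63.6%), which is 14 of the 16 called. The same shares over all 2598 genes called higher in the control stage contrast were 98.2% and 62.1%, close to those of the members. Without the 10 members that entered through con-4c or si-2c, 13 of 14 were negative and 8 of 14 called lower. With plain library totals 26 members were called lower, beside 17.2% of all genes.

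The interaction subtracts the difference con-4c minus con-2c from the difference si-4c minus si-2c, and so tests whether the 2 title stages differ in the same way in both treatments. It was called with a positive value in 19 members (9.84%, beside 9.87% of all genes) and with a negative one in 30 (15.5%, beside 22.5%). Of the 30, 8 are among the 10 that entered through con-4c or si-2c, which leaves 22 of the other 183. Between 1 and 5 CPM, 5 of 76 members were positive and 20 negative, beside 8.65% and 26.9% of tested genes in that range. From 5 to 20 CPM it was 8 and 7 of 57 (beside 15.4% and 18.8%), and at 20 CPM or more 6 and 3 of 60 (beside 19.3% and 9.67%). The median was -0.07 for members and -0.23 for all genes. The split depended on the scaling, since plain library totals gave 4 positive and 62 negative calls (beside 3.19% and 33.6% of all genes) and moved the medians to -0.72 and -0.88. The 19 positive members had their low values in con-4c or si-2c, for example ZNF22 (84.6, 60.0, 59.2 and 88.7 CPM in group order) and ZNF599 (29.0, 17.8, 21.5 and 29.7 CPM).

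**Figure D3:**
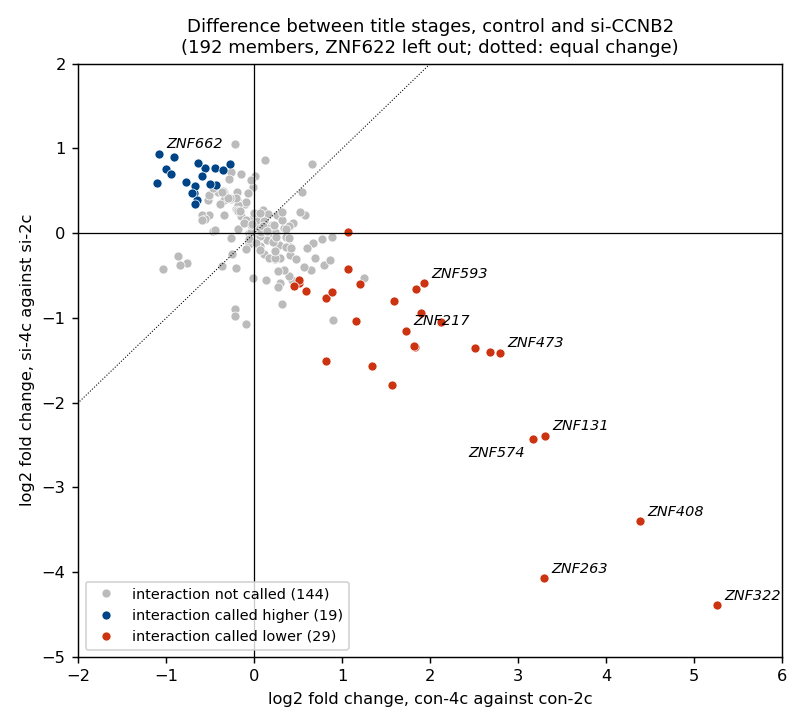
Log2 fold change in the si stage contrast (y axis) against that in the control stage contrast (x axis) for 192 members, without ZNF622; the dotted line marks an equal difference in both treatments. Members with a called interaction lie away from that line, 29 at lower right and 19 at upper left, and the other 144 gather near the origin.

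The crossed comparisons set groups of unlike titles against each other. In si-4c against con-2c, 0 of 193 members were called in either direction, beside 0.0333% of all genes higher and 0.300% lower. At an unadjusted p below 0.05 there were 21 members higher and 4 lower, and DESeq2 also called 0 and 0. The smallest p belonged to ZNF583, with a log2 fold change of 0.30 (SE 0.07, edgeR adjusted p = 0.0653), ahead of ZNF580 (-0.73, SE 0.19, adjusted p = 0.102), ZNF81 (-0.32, SE 0.08, adjusted p = 0.107), ZNF23 (0.69), ZNF830 (0.35) and ZNF445 (0.31). A missed threshold does not show that the groups were alike. For ZNF131 the log2 fold change was -0.03 with an SE of 0.15, and for ZNF593 0.02 with an SE of 0.15.

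In si-2c against con-4c, 4 members were called lower (2.07%, beside 1.63% of all genes) and 1 higher (0.518%, beside 0.161%). ZNF593 fell by 1.32 on the log2 scale (SE 0.14, edgeR adjusted p = 1.58e-05). ZNF396 fell by 1.13 (SE 0.26, adjusted p = 0.0118), a call that was lost without con-4c replicate 2, si-2c replicate 2 or si-2c replicate 3 (adjusted p between 0.0528 and 0.0718). ZNF200 and ZNF226 were the others called lower, and ZNF703 was called higher. ZNF131 (-0.95, SE 0.13, adjusted p = 0.000210), ZNF473 (-0.86, SE 0.17, adjusted p = 0.00479), ZNF292 (-0.55) and ZNF638 (-0.46) had adjusted p below 0.05 at less than a 2-fold difference. ZNF638, a nuclear RNA-binding protein, was at 58.5, 65.9 and 74.2 CPM in si-2c and between 89.0 and 109 CPM in all other libraries, so si-2c was the group in which it was lowest.

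**Figure D4:**
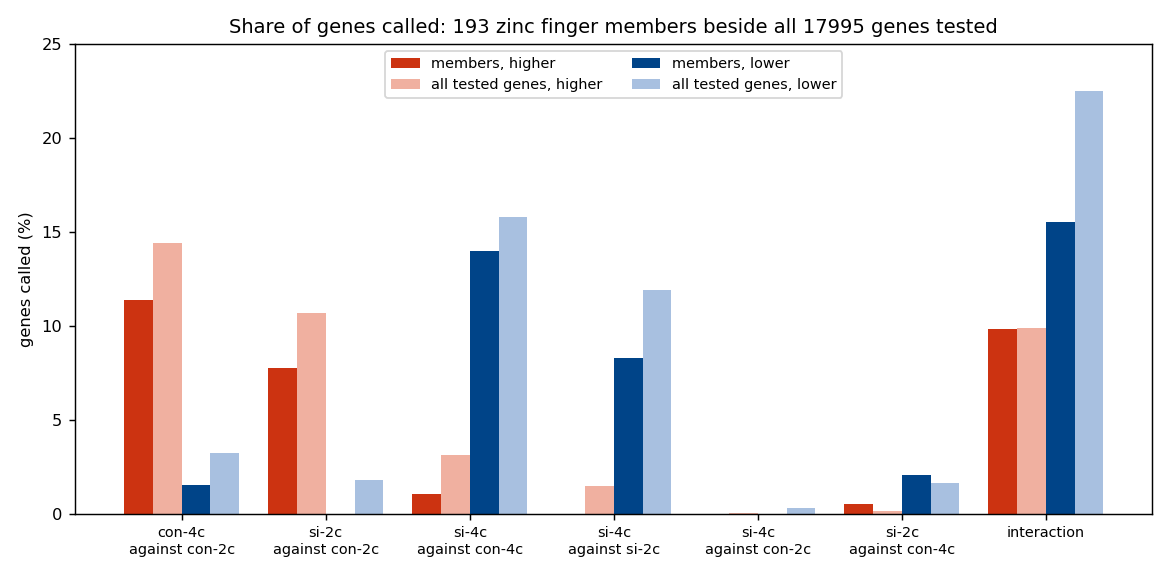
Percent of genes called higher (red) and lower (blue) in each comparison (x axis), for the 193 members (dark bars) and for all 17995 genes tested (light bars), on an axis from 0 to 25%. In the control stage contrast, the 2c knockdown contrast, the 4c knockdown contrast and the si stage contrast the members' bars are shorter than those of all genes. The light bars include genes with a mean under 1 CPM, which could not be members.

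Counted over the control stage contrast, the 2c knockdown contrast, the 4c knockdown contrast and the si stage contrast, 33 members were called in at least 1 (17.1%, beside 24.3% of all genes) and 160 in none. There were 12 members called in all 4 of them (6.22%, beside 8.77% of all genes), each higher in the first pair of comparisons and lower in the second. These comparisons share libraries pairwise, so the 4 calls of a gene are not separate evidence. Of the 11 ZSCAN and ZKSCAN members, ZKSCAN1 and ZSCAN31 were called in any of them. ZKSCAN1 was at 2.69 ± 0.299 CPM in con-2c and 2.67 ± 0.573 in si-4c, with 6.0 ± 0.943 in con-4c and 5.49 ± 1.02 in si-2c. It rose by 1.16 (SE 0.23, edgeR adjusted p = 0.000790) in the control stage contrast and by 1.03 (SE 0.23, adjusted p = 0.00253) in the 2c knockdown contrast, and fell by 1.17 (SE 0.23, adjusted p = 0.000736) in the 4c knockdown contrast and by 1.04 (SE 0.23, adjusted p = 0.00240) in the si stage contrast. ZSCAN31 was called lower in the 4c knockdown contrast only among these 4, from 1.96 ± 0.282 to 0.591 ± 0.104 CPM. It is 1 of the 10 members that entered through con-4c or si-2c.

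The other ZSCAN and ZKSCAN members had the following ranges of group means. ZSCAN26 had 89.7 to 110 CPM, ZSCAN12 25.9 to 32.8 CPM, ZSCAN16 6.51 to 10.6 CPM and ZSCAN23 2.69 to 4.93 CPM. For ZKSCAN8 the range was 44.3 to 48.2 CPM, for ZKSCAN5 13.0 to 16.3 CPM, for ZKSCAN7 2.04 to 3.65 CPM, for ZKSCAN2 1.27 to 2.15 CPM and for ZKSCAN4 1.28 to 1.96 CPM. The median log2 fold change in the control stage contrast was 0.34 over the 5 ZSCAN, 0.11 over the 6 ZKSCAN and 0.08 over the 182 ZNF members.

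KRAB zinc finger proteins act through a shared co-repressor machinery, and 20 genes of it, none of them members, were in the table and tested. In each pairwise comparison edgeR called 0 of them, and so did DESeq2, beside 14.4% of all genes called higher and 3.25% lower in the control stage contrast and 3.12% and 15.8% in the 4c knockdown contrast. The interaction was called positive for DNMT1 and PPHLN1 and negative for CBX5, beside 9.87% and 22.5% of all genes. At an unadjusted p below 0.05 there were 8 higher and 4 lower in the control stage contrast, 5 and 5 in the 2c knockdown contrast, 5 and 8 in the 4c knockdown contrast, 4 and 5 in the si stage contrast, 1 and 0 in si-4c against con-2c, and 1 and 5 in si-2c against con-4c. TRIM28, the scaffold that KRAB domains bind, was at 9.48, 12.2, 11.8 and 8.95 CPM in group order. SETDB1, the methyltransferase it recruits, was at 175, 163, 154 and 165 CPM. CBX5, the heterochromatin protein HP1 alpha, was at 98.4, 174, 129 and 92.6 CPM, with a log2 fold change of 0.82 in the control stage contrast (edgeR adjusted p = 8.22e-07), under the 2-fold threshold. DNMT1, the maintenance DNA methyltransferase, was at 74582, 47909, 40198 and 70725 CPM. The median over the 20 genes was 0.29 in the control stage contrast and -0.24 in the 4c knockdown contrast.

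Among other C2H2 genes with a mean of at least 1 CPM, the 13 with a ZFP symbol had 0 calls in the control stage contrast with edgeR and with DESeq2, and at an unadjusted p below 0.05 1 was higher and 3 lower (all genes, 14.4% called higher and 3.25% lower). Of 22 ZBTB genes, whose proteins pair a BTB domain with zinc fingers, 7 were called higher and 0 lower in that comparison, and 0 higher and 7 lower in the 4c knockdown contrast, where 3.12% and 15.8% of all genes were called. Their median was 0.55 in the first and -0.34 in the second. Whether these counts differ from those of the members was not tested.

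Zinc finger genes sit in clusters that arose by tandem duplication, and coordinates in the RefSeq annotation of Sscrofa11.1 were found by symbol for 158 members, 41 of them on chromosome 6, 20 on chromosome 3 and 16 on chromosome 7. Another member lay within 200 kb of 68, of which 5 were called higher in the control stage contrast (7.35%), while 90 had none so near, of which 15 were called higher (16.7%). In the 4c knockdown contrast 8 (11.8%) and 16 (17.8%) were called lower. Over all genes the shares were 14.4% and 15.8%, and whether the 2 sets of members differ was not tested. Without the members that entered through con-4c or si-2c, 4 of 65 and 9 of 84 were called higher in the control stage contrast, and 5 and 10 lower in the 4c knockdown contrast. Neighbouring paralogs can share reads, and how the counting treated such reads was not given in the sources used here, so values inside clusters are less certain.

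The longest run held 11 members at chr6:45520885-46468679, all of ZNF symbols (ZNF146, ZNF565, ZNF567, ZNF382, ZNF529, ZNF260, ZNF566, ZNF829, ZNF383, ZNF527 and ZNF570). In the control stage contrast none of the 11 was called, beside 14.4% of all genes higher and 3.25% lower. Their median log2 fold change was -0.47, with a range from -1.0 to 0.36. DESeq2 called 0 of them as well. Of the 11, 6 had an edgeR adjusted p below 0.05 on the lower side, beside 15.1% of all genes. On the higher side 0 did (beside 20.7%), and 1 had an unadjusted p below 0.05. In the 4c knockdown contrast the median was 0.83. At an edgeR adjusted p below 0.05, 7 were on the higher side (beside 15.1% of all genes), of which ZNF566 was called. On the lower side 0 were (beside 21.7%), and 1 had an unadjusted p below 0.05. DESeq2 called 0 in either direction. With plain library totals the medians were -0.18 and 0.57. ZNF567 (chr6:45709663-45738030) was at 186, 225 and 172 CPM in con-2c and 174, 168 and 176 in si-4c, with 92.9, 99.9 and 99.4 in con-4c and 96.1, 99.2 and 111 in si-2c. Its con-2c and si-4c libraries overlapped, as did those of con-4c and si-2c, and the 2 pairs stood apart. The log2 fold change in the control stage contrast was -1.0 (SE 0.10, edgeR adjusted p = 3.22e-07), which missed the fold threshold before rounding. ZNF829 had means of 43.3, 27.7, 31.1 and 55.3 CPM in group order, and ZNF383 5.48, 2.92, 3.06 and 5.74 CPM. ZNF570 and ZNF260 (24.7, 26.8, 23.5 and 24.8 CPM), which lie within the same run, stayed level.

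**Figure D5:**
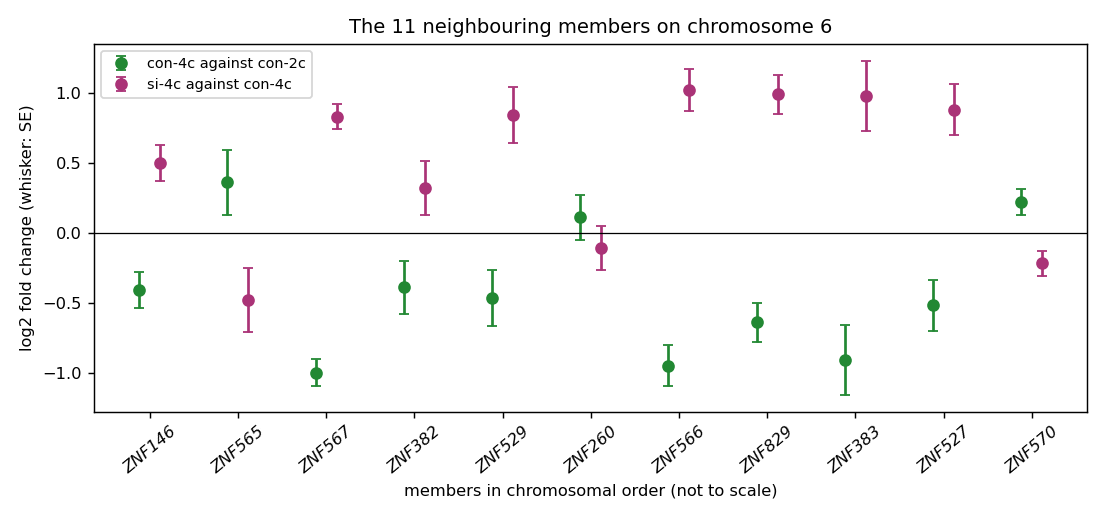
Log2 fold changes (y axis; whiskers are SE) of the 11 neighbouring members of chromosome 6 in the control stage contrast (green) and the 4c knockdown contrast (purple), in chromosomal order and not to scale (x axis). Both comparisons share the con-4c libraries; ZNF567 and ZNF566 are lowest in green, and ZNF566 is highest in purple at 1.02.

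On chromosome 7, 8 members at chr7:21936152-22229304 included ZSCAN16, ZSCAN26, ZSCAN31, ZSCAN12, ZSCAN23 and ZKSCAN4 and had a median of 0.28 in the control stage contrast, where 2 were on the higher and 1 on the lower side at an edgeR adjusted p below 0.05 and at less than a 2-fold difference (beside 20.7% and 15.1% of all genes at any fold). In the 4c knockdown contrast that run had a median of -0.16 and a range from -1.72 to 0.77. It had 1 call, ZSCAN31 lower (beside 15.8% of all genes), which DESeq2 also made. ZSCAN31 and ZNF135 are among the 10 members that entered through con-4c or si-2c. The 4 members at chr14:22477507-22638290 (ZNF10, ZNF140, ZNF84 and ZNF605) had a median of -0.10, and the 4 at chr6:60638748-60903923 (ZNF667, ZNF583, ZNF471 and ZNF470) 0.21. The 4 at chr6:62754034-63066130 (ZNF135, ZNF329, ZNF584 and ZNF446) had a median of -0.10 there and -0.21 in the 4c knockdown contrast, where ZNF135 was called lower. Both medians of -0.10 turned positive with plain library totals (0.17 each), so no direction is given for these runs.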

How the data were processed

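The authors deposited raw, whole-number counts for each Ensembl gene. The submitters' processing notes name cutadapt 1.9, HISAT2 2.2.1, StringTie 2.1.6, DESeq2, edgeR and the build Sscrofa11.1, without a role for each. How strand and multiply matching reads were handled was not given in the sources used here. CPM was computed here from the deposited counts. Groups came from the library titles. Counts were fitted in R 4.3.3 with edgeR 4.0.16 (filterByExpr, TMM factors 0.852 to 1.21, 1 quasi-likelihood model with 4 group means), adjusted by Benjamini-Hochberg over 17995 genes, at the study's thresholds. SE is the log2 fold change over the square root of F. The biological coefficient of variation was 27.3%. Replicates within groups differed by more than counting noise (chi-square over its degrees of freedom, 7.48 to 44.0), and nothing says that pools came from separate matings, so p-values measure the spread between these libraries. The script was tested on simulated data.

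Members named are the 10 with the highest mean CPM, up to 6 called higher and 4 lower with the smallest p and at least 5 CPM in the higher group in the control stage contrast, the 2c knockdown contrast and the 4c knockdown contrast, up to 6 with the smallest p in each crossed comparison, the ZSCAN and ZKSCAN members, those nearest the threshold and the genes of the role lists. Further members (ZNF10, ZNF22, ZNF200, ZNF226, ZNF263, ZNF365, ZNF408, ZNF599, ZNF691, ZNF703, ZNF772, ZNF777 and the genes of chromosomal runs) were named after their values were seen. The members, lists and tests were chosen with earlier results of these data known. Alternatives were DESeq2 1.42.0, library totals, other filters, thresholds and membership, a replicate block and leaving out each library. No sequences of the genes were used here.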

Additional observations from a re-analysis of the deposited data

Results flagged for a closer look

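For 34 of the members named here the difference between the title stages itself differed between si and control libraries (edgeR interaction, called at an adjusted p below 0.05 and at least 2-fold). Many of them were named for their values in comparisons of the same 12 libraries, which favoured a called interaction. The count of 34 is therefore no separate evidence. The interaction on the log2 scale was negative for ZNF322 (-9.65, SE 0.86, 3 of 3 con-4c libraries above con-2c and 3 of 3 si-4c libraries below si-2c), ZNF131 (-5.69, SE 0.21), ZNF574 (-5.60, SE 0.39), ZNF473 (-4.20, SE 0.26), ZNF217 (-2.88, SE 0.17) and ZNF593 (-2.52, SE 0.21). It was positive for ZNF662 (2.01, SE 0.22), ZNF81 (1.70, SE 0.12) and ZNF566 (1.65, SE 0.22). Further negative values were those of ZNF408 (-7.79), ZNF263 (-7.36), ZNF331 (-4.08), ZNF396 (-3.87), ZNF777 (-3.35), ZNF410 (-3.17), ZNF335 (-3.16), ZNF691 (-3.14), ZNF772 (-2.51), ZNF148 (-2.39), ZKSCAN1 (-2.20), ZNF827 (-1.59), ZNF281 (-1.11), ZNF462 (-1.07) and ZNF200 (-1.06). Further positive values were those of ZNF383 (1.81), ZNF567 (1.76), ZNF829 (1.47), ZNF346 (1.39), ZNF24 (1.33), ZNF10 (1.22), ZNF599 (1.17), ZNF22 (1.08) and ZSCAN16 (1.01). ZNF622 was also called negative, and no size is given for it because con-2c held no count. Over the members the interaction was called 19 times with a positive and 30 times with a negative value, beside 9.87% and 22.5% of all genes. Of the 30, 8 are among the 10 members that entered through con-4c or si-2c. Some sizes rest on few counts summed over 3 libraries, in con-2c and si-4c 27 and 28 for ZNF322, 12 and 20 for ZNF408, 31 and 14 for ZNF263, and 34 and 33 for ZNF331.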

How the results depend on the processing

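With plain library totals the control stage contrast gave 0 members lower (beside 1.27% of all genes) and the 2c knockdown contrast 32 higher (16.8%). The 4c knockdown contrast gave 0 higher (1.28%), the si stage contrast 26 lower (17.2%), and the interaction 4 higher and 62 lower (3.19% and 33.6%). DESeq2 gave 1 higher in the 4c knockdown contrast (beside 1.85% of all genes), as did a filter of 1 CPM in 3 libraries (beside 3.61%). No filter gave 4 there (beside 2.01%) and 1 higher in the si stage contrast (beside 0.924%). Without a minimum fold, counts (higher, lower) are followed by the shares of all genes. The control stage contrast had 40 and 27 (20.7% and 15.1%) and the 2c knockdown contrast 33 and 27 (16.6% and 12.3%). The si stage contrast had 30 and 26 (12.1% and 16.9%), and the crossed si-2c against con-4c 2 and 11 (2.22% and 5.32%). In the 4c knockdown contrast 31 were higher (15.1%) and in the interaction 41 (18.2%). Members of at least 5 CPM are a smaller set. Their counts are followed by the shares of tested genes at 5 to 20 CPM and at 20 CPM or more. There were 7 higher in the control stage contrast (12.9% and 5.59%) and 5 higher in the 2c knockdown contrast (8.86% and 3.41%). The 4c knockdown contrast had 8 lower (13.2% and 5.22%), the si stage contrast 5 lower (8.73% and 3.32%) and the interaction 10 lower (18.8% and 9.67%). In si-2c against con-4c there were 0 higher (0.0647% and 0%) and 1 lower (3.91% and 1.46%). Every tested row of the symbol pattern was an alternative chosen after seeing the data. It gave 5 lower in the control stage contrast (beside 3.25% of all genes) and 1 lower in the 2c knockdown contrast (1.80%). Higher were 4 in the 4c knockdown contrast (3.12%), 1 in the si stage contrast (1.47%) and 2 in si-2c against con-4c (0.161%). Leaving aside the 10 members that entered through con-4c or si-2c was also chosen after seeing the data. It gave 14 higher in the control stage contrast (beside 14.4% of all genes). It gave 17 lower in the 4c knockdown contrast (beside 15.8%) and 10 lower in the si stage contrast (beside 11.9%).

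Leaving out 1 library at a time gave 21 to 23 higher and 2 to 5 lower in the control stage contrast (5 without con-4c replicate 2), 14 to 16 and 0 to 1 in the 2c knockdown contrast (1 without con-2c replicate 1, con-2c replicate 3 or si-2c replicate 1), and 2 to 5 and 22 to 27 in the 4c knockdown contrast (4 higher without con-4c replicate 1 or 2, 5 without si-4c replicate 1). It gave 0 to 2 and 12 to 16 in the si stage contrast (1 higher without con-4c replicate 3, si-2c replicate 3 or si-4c replicate 2, 2 without si-2c replicate 1), 0 and 0 in si-4c against con-2c, 0 to 1 and 1 to 4 in si-2c against con-4c (0 higher without con-4c replicate 3 or si-2c replicate 1 or 2; 2 lower without con-4c replicate 2 or 3 or si-2c replicate 3, 1 without si-2c replicate 2), and 14 to 23 and 27 to 33 in the interaction. No member named for a small p changed sign in the comparison it was named for, an outcome which that choice favoured. Other named members were not checked in this way. The median over all members changed sign with plain library totals in the si stage contrast and in si-2c against con-4c (-0.03 to 0.10). The cause of these shifts was not tested. Shares of all genes (higher, lower) without 1 library were 11.5% to 13.9% and 2.84% to 3.46% in the control stage contrast. In the knockdown contrasts they were 8.22% to 10.3% and 1.43% to 1.82% (2c), and 2.72% to 3.19% and 12.6% to 15.2% (4c). In the si stage contrast they were 1.17% to 1.74% and 8.96% to 11.6%, and in the interaction 8.91% to 9.43% and 20.6% to 21.9%. In si-2c against con-4c they were 0.0880% to 0.188% and 1.19% to 1.58%. Whether libraries with the same replicate number share a batch was not given in the sources used here. Deviations from group means correlated at -0.05 to 0.029 in the 18 pairs with the same number and at -0.039 to 0.046 in the other 36. Of the 12 libraries, 5 correlated best with their own number. With 3 libraries per group these values cannot decide whether the numbers pair the libraries. The replicate block gave 22 higher and 3 lower in the control stage contrast (beside 13.1% and 3.22% of all genes). It gave 15 and 0 in the 2c knockdown contrast (9.39% and 1.72%) and 2 and 26 in the 4c knockdown contrast (3.02% and 14.5%). In the si stage contrast it gave 0 and 15 (1.43% and 10.2%), and in the interaction 17 and 30 (9.71% and 21.3%).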

Other observations

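Of the 78 rows with a matching symbol below 1 CPM, 54 were tested. In the control stage contrast 7 of them were called higher and 2 lower (beside 14.4% and 3.25% of all genes), in the 2c knockdown contrast 5 and 1 (beside 10.7% and 1.80%), in the 4c knockdown contrast 2 and 9 (beside 3.12% and 15.8%), and in the si stage contrast 1 and 8 (beside 1.47% and 11.9%). The counts behind these rows were low, and differences in either direction are the least certain of the family.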
